A study of Mus musculus with 45 samples.

Results

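The genes described here are 50 cell cycle and DNA replication genes of the mouse, picked by gene symbol from the 34994 genes counted in the series, and all 50 were found and passed the filter on low counts in every comparison. They were split by textbook role into 26 G1/S members, which act in the approach to and the course of DNA replication, and 24 G2/M members, which act in the entry to and passage through mitosis. RNA was sequenced from forelimb buds of CD1 mouse embryos of gestation day 13, cut out and kept in culture bottles with the solvent dimethyl sulfoxide (DMSO) alone, or with bisphenol S (BPS, an industrial substitute for bisphenol A) at 10 µM or 50 µM. Each dose was sampled after 3, 24 and 48 h, with 5 libraries in each of the 9 groups and 45 libraries in all. Limbs of male and female embryos shared bottles, and no group carried a mutation or a transgene. The strain entries of the 5 libraries of 50 µM BPS at 48 h read CD2 to CD6, 1 each, and were taken as CD1. The labels do not say whether the libraries of a group came from separate bottles or litters, so a p-value here speaks only of how much single libraries vary, a spread that could be technical.

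Library totals ran between 15.2 M and 23.1 M counted reads (M, mega), with a median of 18.2 M. Levels are CPM, a gene's read count relative to the total of its library, after trimmed-mean (TMM) scaling over the 45 libraries. Forelimb identity was checked on markers: in DMSO at 3 h Tbx5, the forelimb T-box factor, was at 299.9 ± 12.8 CPM, whereas the hindlimb factors Tbx4 and Pitx1 were at 22.8 ± 1.40 and 6.23 ± 0.803 CPM (SD, n = 5). A difference was called at an adjusted p below 0.05 in edgeR's quasi-likelihood test, with Benjamini-Hochberg adjustment over all genes tested in that comparison. For 24 of the 50 members another annotated gene overlaps the same stretch, and for 11 of them (Kif20a, Cdc45, Ccne2, Mcm7, Cdc20, Cdc25b, Ccna2, Ccnd1, Cdk4, Ccnd3 and Cdc25c) that partner had reads worth over 10% of the member's own. Since the protocol does not state that strand was kept, reads of these genes and of their partners cannot be told apart, and their values are uncertain to that extent.

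Cells commit to division in G1, when D-type cyclins with the kinases Cdk4 and Cdk6, and then E-type cyclins with Cdk2, phosphorylate the retinoblastoma protein and free E2F transcription factors. E2F factors drive genes for origin licensing, the replicative helicase and nucleotide supply, while a later wave of genes for mitosis is switched on by Mybl2 and Foxm1 and is held down in resting cells by the DREAM repressor complex. In the limb bud, dividing mesenchyme gives way to cartilage condensations, whose cells slow down or leave the cycle as they mature.

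The promoters of the classes differ in known elements, and 5 windows are shown as examples, which do not all follow the pattern of their class. Each window is the RefSeq sequence of build GRCm38.p6 that runs over 250 bases before and 50 bases after a gene's start, read 5′ to 3′ on the gene's strand. Such windows were matched by symbol for 41 of the 50 members, 44 windows in all because some genes have several starts. The windows are chr8:75109259-75109558 on the plus strand for Mcm5, chr1:128359656-128359955 on the minus strand for Mcm6, chr10:69352863-69353162 on the minus strand for Cdk1, chr2:172370521-172370820 on the minus strand for Aurka, and chr13:100786437-100786736 on the minus strand for Ccnb1. Capitals mark letters that match any of the motifs searched, on either strand: the E2F-like words TTTCCCGC, TTTGGCGC and TTTCGCGC, the CHR-like words TTTGAA and TTCGAA (the cell cycle genes homology region, to which DREAM binds), and the CCAAT box.
Mcm5: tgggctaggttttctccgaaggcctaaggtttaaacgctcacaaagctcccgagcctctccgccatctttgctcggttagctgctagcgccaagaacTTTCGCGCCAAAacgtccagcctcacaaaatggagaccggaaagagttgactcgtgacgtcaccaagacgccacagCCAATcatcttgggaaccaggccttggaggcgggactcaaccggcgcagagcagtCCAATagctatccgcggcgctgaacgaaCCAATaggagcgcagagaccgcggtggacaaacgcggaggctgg
Mcm6: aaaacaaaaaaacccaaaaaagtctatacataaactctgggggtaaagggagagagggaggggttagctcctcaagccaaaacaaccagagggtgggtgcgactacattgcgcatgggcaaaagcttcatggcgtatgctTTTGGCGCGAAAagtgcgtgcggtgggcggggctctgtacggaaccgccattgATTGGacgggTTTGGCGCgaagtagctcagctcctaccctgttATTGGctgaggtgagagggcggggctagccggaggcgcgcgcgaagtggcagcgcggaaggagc
Cdk1: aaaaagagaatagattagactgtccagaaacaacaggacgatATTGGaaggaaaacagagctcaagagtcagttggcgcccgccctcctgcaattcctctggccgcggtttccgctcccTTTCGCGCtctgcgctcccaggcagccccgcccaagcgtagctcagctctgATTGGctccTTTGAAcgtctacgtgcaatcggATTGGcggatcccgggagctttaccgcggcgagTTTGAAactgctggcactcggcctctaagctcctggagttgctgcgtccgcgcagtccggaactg
Aurka: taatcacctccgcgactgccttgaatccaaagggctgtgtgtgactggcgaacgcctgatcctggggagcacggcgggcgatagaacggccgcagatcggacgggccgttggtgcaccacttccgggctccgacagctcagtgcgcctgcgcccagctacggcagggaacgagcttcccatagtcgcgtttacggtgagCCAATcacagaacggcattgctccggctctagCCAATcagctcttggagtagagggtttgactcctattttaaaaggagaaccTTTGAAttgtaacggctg
Ccnb1: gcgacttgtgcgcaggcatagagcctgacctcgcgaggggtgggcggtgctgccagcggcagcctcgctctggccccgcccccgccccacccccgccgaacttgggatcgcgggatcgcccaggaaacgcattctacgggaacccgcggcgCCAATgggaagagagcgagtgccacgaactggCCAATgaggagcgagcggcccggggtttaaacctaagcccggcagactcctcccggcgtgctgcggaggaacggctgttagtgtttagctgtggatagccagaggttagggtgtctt

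In the Mcm5 window an E2F-like word read forwards overlaps another read from the other strand, at 153 and 149 bases before the start, and 3 CCAAT boxes follow. The Mcm6 window holds such an overlapping pair at 110 and 106 bases before the start and a further E2F-like word 47 bases before it. The Cdk1 window holds words of all 3 kinds: 1 E2F-like word 131 bases before the start, 2 CHR-like words 71 and 15 bases before it, and 3 CCAAT boxes. Aurka carries 2 CCAAT boxes before its start and 1 CHR-like word 33 bases after it. The Ccnb1 window has 2 CCAAT boxes, 99 and 67 bases before the start, and no letters of the other motifs.

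E2F-like words lay in 10 of 25 G1/S windows (40.0%) and 1 of 19 G2/M windows (5.26%), beside 606 of all 32851 windows of the table (1.84%). CHR-like words showed the reverse order, in 5 of 25 G1/S windows (20.0%) and 15 of 19 G2/M windows (78.9%), beside 19.2% of all windows. The CCAAT box was found in 68.0% of G1/S and 89.5% of G2/M windows, beside 37.4% of all windows. All 15 G2/M windows with a CHR-like word also held a CCAAT box, a pairing seen in 7.52% of all windows. Overlapping matches of a kind count once per window, and a match describes letters, not a bound site. Aurkb, Ccna2, Ccnd1, Ccnd2, Ccne2, Cdc25c, Foxm1, Kif20a and Mcm4 were not in the table. The fall at 24 h described below was set beside these words with no test. Among G1/S members the median log2 fold change was -0.46 over 10 with an E2F-like word and -0.45 over 12 without, -0.39 over 5 with a CHR-like word and -0.52 over 17 without, and -0.51 over 15 with a CCAAT box and -0.24 over 7 without. Among G2/M members it was -1.13 over 15 with a CHR-like word and -1.09 over 4 without, and -1.16 over 17 with a CCAAT box and -0.85 over 2 without, while Cdk1, with the E2F-like word, had -0.74 beside -1.14 over the 18 others.

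**Figure D1:**
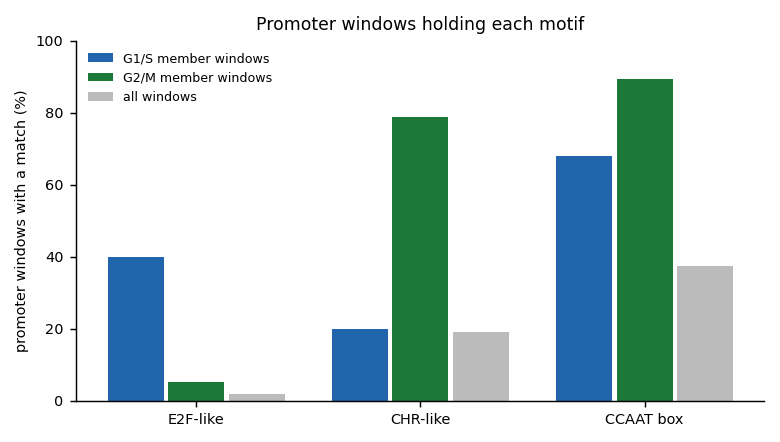
Share of promoter windows (%) holding each motif, for 25 windows of G1/S members, 19 windows of G2/M members and all 32851 windows. The E2F-like bar is highest for the G1/S members (40.0%) and the CHR-like bar for the G2/M members (78.9%).

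In the DMSO limbs at 3 h all 50 members were expressed, at mean levels of 21.9 to 724 CPM among the G1/S members and 33.2 to 398 CPM among the G2/M members. Per kilobase of gene length, the scale on which genes can be compared, Cdk4 stood first at 166.8 ± 3.60 CPM per kb, followed by Ccnd2, the D-type cyclin, at 77.0 ± 9.15 and the replication clamp Pcna at 59.5 ± 2.29 CPM per kb (SD, n = 5). The lowest were Cdc6, the loader of the helicase, at 5.72 ± 0.385, the repressor E2f7 at 4.72 ± 0.433 and Cdk6 at 2.16 ± 0.290 CPM per kb. Cdk4 and Ccnd2 at the top and E2f7 and Cdk6 at the bottom each stood apart from the next gene by more than the sum of their SDs. Other neighbours often did not, as with Pcna and Cdc20 (54.9 ± 3.74 CPM per kb), and Mcm5, Ccnb2, Ube2c, Rrm2, Top2a and Mcm4 lay between 44.1 and 45.5 CPM per kb. The median was 20.0 CPM per kb for the G1/S members and 21.7 CPM per kb for the G2/M members at 3 h. At 24 h these medians were 14.9 and 10.6 CPM per kb, and at 48 h they were 14.2 and 11.4 CPM per kb.

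Nearly the whole set differed between 3 and 24 h in culture, and the mitotic genes differed most. The age of the tissue and the time since cutting rise together with time in culture and cannot be told apart from it. In DMSO limbs at 24 h against 3 h, 43 members fell, 3 rose and 4 were not called, beside 40.2% of all 16536 genes called (20.0% higher and 20.1% lower). Of the 26 G1/S members 19 fell and 3 rose, with a median log2 fold change of -0.39, while all 24 G2/M members fell, with a median of -1.13. The median over all genes tested was -0.01. Of the G1/S members, 16 had all 5 libraries at 24 h below all 5 at 3 h, 1 (Ccnd3) had all above and 9 overlapped, while all 24 G2/M members lay wholly below. Over all genes tested, of which 40.2% were called, 12.2% lay wholly below and 15.4% wholly above. In bulk RNA, fewer cells of a type and less RNA per cell cannot be told apart.

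**Figure D2:**
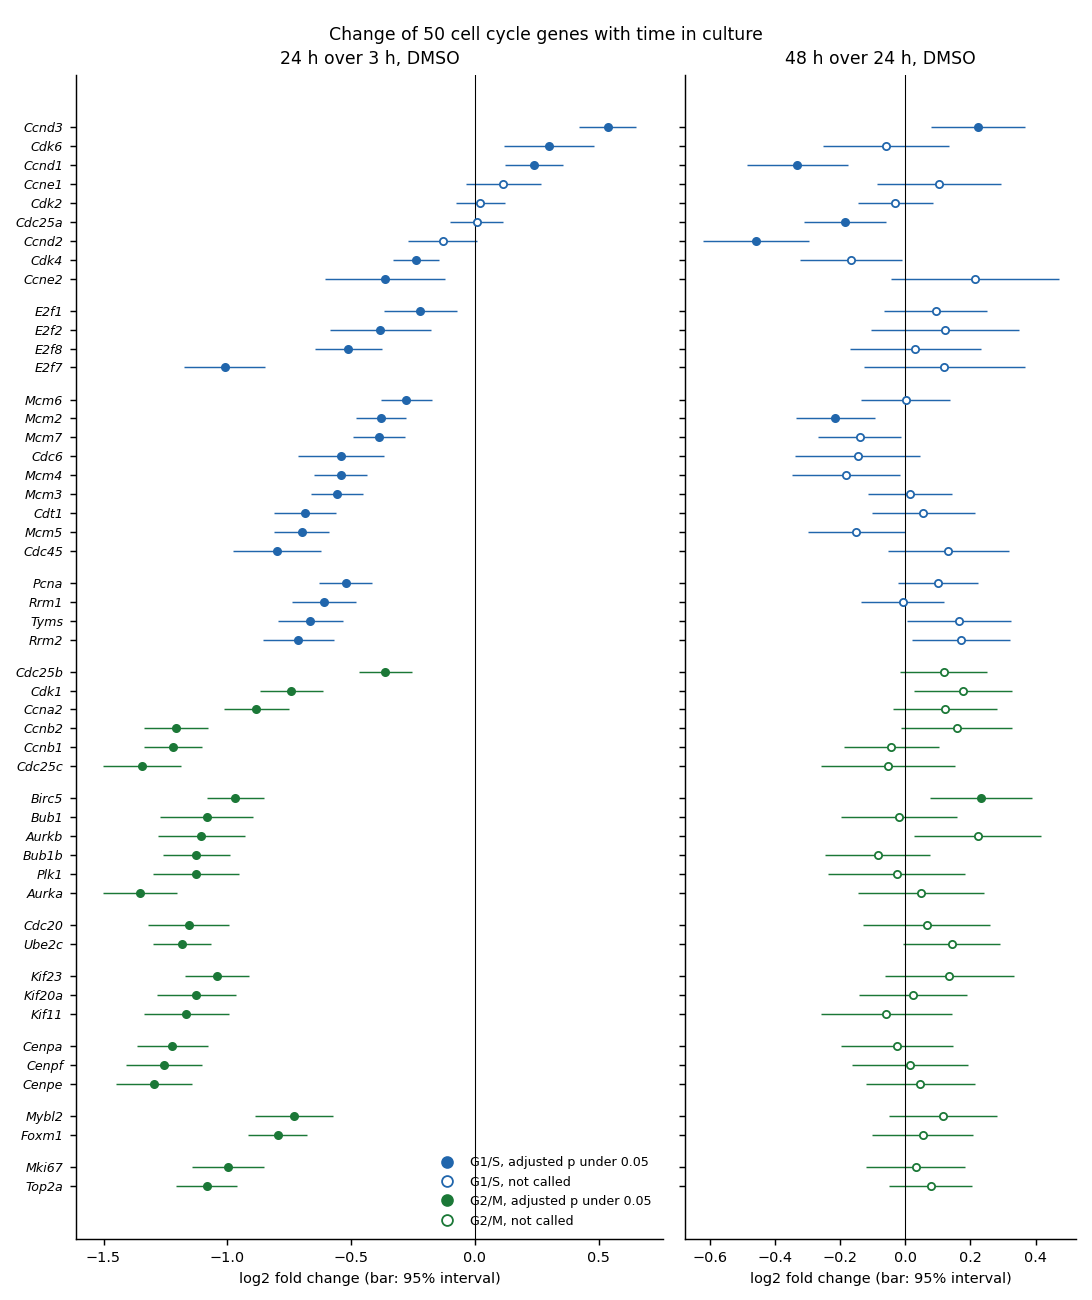
Log2 fold change of the 50 members in DMSO limbs, at 24 h over 3 h (left) and at 48 h over 24 h (right), grouped by role. Bars are 95% intervals from edgeR and filled points have an adjusted p below 0.05. All 24 G2/M members lie left of 0 at 24 h over 3 h, whereas at 48 h over 24 h most points lie near 0.

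The 3 members that rose were Ccnd1, Ccnd3 and Cdk6, among the 5 genes of D-type cyclins and their kinases, of which Cdk4 fell and Ccnd2 was not called. Ccnd3, a D-type cyclin on chromosome 17 (mm10), had 321.0, 308.9, 309.4, 292.5 and 270.4 CPM in the DMSO libraries at 24 h, against 198.5, 209.2, 212.8, 216.7 and 186.5 CPM at 3 h. The times did not overlap, and the log2 fold change was 0.54 ± 0.056 (SE, adjusted p = 1.26e-07, edgeR). Ccnd1, the D-type cyclin induced by growth signals, had 198.8, 213.2, 218.5, 203.0 and 181.5 CPM at 24 h, against 186.5, 176.9, 162.3, 163.3 and 160.8 CPM at 3 h. It rose by 0.24 ± 0.057 (adjusted p = 0.00191), with the lowest library at 24 h inside the range at 3 h. Cdk6 rose by 0.30 ± 0.087 (adjusted p = 0.00907), whereas Cdk4, the other kinase of D-type cyclins, fell by 0.24 on the log2 scale (SE 0.045, adjusted p = 0.000225).

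Cyclin E and its kinase showed no common direction. Ccne1 had a log2 fold change of 0.11 ± 0.073 (adjusted p = 0.221) and Ccne2 fell by 0.36 (SE 0.116, adjusted p = 0.0173), a call that was lost without DMSO 24 h replicate 2 (adjusted p = 0.0512) and in a gene whose partner Ints8 had reads worth 271% of its own. Cdk2, the kinase bound by E-type cyclins, had 120.4, 119.9, 115.3, 119.7 and 126.1 CPM at 24 h, against 117.7, 119.7, 110.5, 118.4 and 118.9 CPM at 3 h. The times overlapped, with 3 of the 5 libraries at 24 h above the highest at 3 h, and the log2 fold change of 0.02 ± 0.047 was not called (adjusted p = 0.739). Cdc25a, the phosphatase that activates Cdk2, had 0.01 ± 0.051 (adjusted p = 0.930), and Ccnd2 had -0.13 ± 0.066 (adjusted p = 0.129).

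The E2F factors and the genes of replication fell. All 4 E2F members fell: E2f7, the atypical E2F repressor, by 1.01 (SE 0.079, adjusted p = 1.74e-09), E2f8 by 0.51, E2f2 by 0.38 and E2f1 by 0.22, the last not called without DMSO 3 h replicate 2 (-0.17, adjusted p = 0.0705). E2f7 had 21.2, 21.5, 19.1, 24.1 and 20.7 CPM at 24 h, against 43.2, 41.6, 36.6, 43.7 and 47.4 CPM at 3 h. The highest library at 24 h lay well below the lowest at 3 h.

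All 9 genes of origin licensing and the helicase fell, by log2 fold changes between -0.80 (Cdc45, which activates the helicase) and -0.28 (Mcm6, a helicase subunit). The overlapping partner of Cdc45, Ufd1, had reads worth 287% of those of Cdc45. Mcm5, the helicase subunit whose promoter is shown above, had 109.9, 110.6, 118.1, 121.8 and 105.2 CPM in DMSO limbs at 24 h, against 185.7, 181.2, 173.0, 171.2 and 197.1 CPM at 3 h. No library of 24 h reached those of 3 h, and the log2 fold change was -0.70 ± 0.053 (adjusted p = 1.12e-09). Among the 6 subunits Mcm2 to Mcm7 the changes were unequal: Mcm6 fell by 0.28 and Mcm5 by 0.70, with 95% intervals that did not overlap. Cdt1, the licensing factor, fell by 0.69 and Cdc6 by 0.54.

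The 4 genes of the replication clamp and of nucleotide supply also fell. Pcna had 96.1, 96.3, 106.3, 106.6 and 97.8 CPM at 24 h, against 136.6, 142.5, 139.6, 144.6 and 151.1 CPM at 3 h. The 2 times did not overlap, with a log2 fold change of -0.52 ± 0.051 (adjusted p = 4.39e-08). The subunits of ribonucleotide reductase, which makes deoxynucleotides, fell by 0.61 (Rrm1) and 0.71 (Rrm2), and thymidylate synthase, Tyms, fell by 0.66.

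The mitotic cyclins and the genes that control their kinase all fell, by unequal amounts. Ccnb1, the main mitotic cyclin, had 46.6, 49.4, 48.8, 52.4 and 52.0 CPM at 24 h, against 120.1, 114.2, 103.3, 113.5 and 122.0 CPM at 3 h. Every library at 24 h was below every library at 3 h by a wide gap, with a log2 fold change of -1.22 ± 0.056 (adjusted p = 9.82e-13). Ccnb2 fell by 1.21 and Cdc25c, the phosphatase that releases Cdk1 at mitosis, by 1.35. Cdk1, the kinase of cyclin B, had 58.1, 52.0, 50.3, 58.2 and 47.3 CPM at 24 h, against 85.1, 87.9, 83.8, 88.6 and 93.7 CPM at 3 h. It too did not overlap between times, and its log2 fold change of -0.74 ± 0.062 (adjusted p = 4.60e-09) had an interval that did not reach that of Ccnb1. Ccna2, the cyclin of S phase and early mitosis, fell by 0.88. Cdc25b, a further phosphatase of the family, fell by 0.36, the smallest change of any G2/M member. Its overlapping partner Spef1 had reads worth 48.6% of those of Cdc25b.

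The kinases of the spindle, the checkpoint and the motors fell together. Aurka, the kinase of spindle poles, had 26.3, 20.7, 23.9, 23.8 and 22.0 CPM at 24 h, against 60.4, 53.2, 61.7, 56.4 and 63.1 CPM at 3 h. Its libraries at 24 h all lay below those at 3 h, and at -1.35 ± 0.071 (adjusted p = 5.64e-12) it had the largest log2 fall of the 50 members, just beyond Cdc25c. The other 5 genes of mitotic kinases and the spindle checkpoint fell by 0.97 (Birc5, survivin of the chromosomal passenger complex) to 1.13 (Plk1 and Bub1b), and the 3 spindle motors by 1.04 (Kif23) to 1.17 (Kif11, which pushes spindle poles apart). Cdc20 and Ube2c, partners of the anaphase promoting complex, which destroys cyclin B, fell by 1.16 and 1.18. The centromere genes Cenpa, Cenpf and Cenpe fell by 1.22, 1.25 and 1.30.

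The transcription factors of the mitotic wave fell too, with log2 fold changes of -0.73 ± 0.076 for Mybl2 and -0.80 ± 0.057 for Foxm1. Top2a, the topoisomerase that untangles chromosomes, had 187.4, 181.8, 185.8, 191.3 and 204.3 CPM at 24 h, against 447.3, 364.9, 355.2, 394.5 and 428.8 CPM at 3 h. Mki67, which coats mitotic chromosomes, averaged 164.2 ± 13.3 CPM at 24 h, against 324.0 ± 36.4 CPM at 3 h (SD, n = 5). Neither overlapped between times, and their log2 fold changes were -1.08 ± 0.060 and -0.997 ± 0.070 (adjusted p = 1.18e-11 and 1.22e-09).

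The difference between the class levels was larger in each library of 24 and 48 h than in any library of 3 h. The level of a class in a library was taken as the mean of log2 CPM (prior count 2) over its members. Since gene lengths enter it, only its change is read. In DMSO limbs the G1/S mean was 6.55 ± 0.046 at 3 h, 6.22 ± 0.054 at 24 h and 6.21 ± 0.039 at 48 h, while the G2/M mean was 6.50 ± 0.083, 5.46 ± 0.054 and 5.52 ± 0.035 at the same times (SD, n = 5). G1/S minus G2/M ran between -0.04 and 0.12 in the 15 libraries of 3 h, and between 0.60 and 0.84 in the 30 libraries of 24 and 48 h, with no overlap. The difference of the class medians at 24 h against 3 h in DMSO was 0.74, and 0.60 with the D-type cyclins, Cdk4 and Cdk6 left out, when the G1/S median was -0.52.

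**Figure D3:**
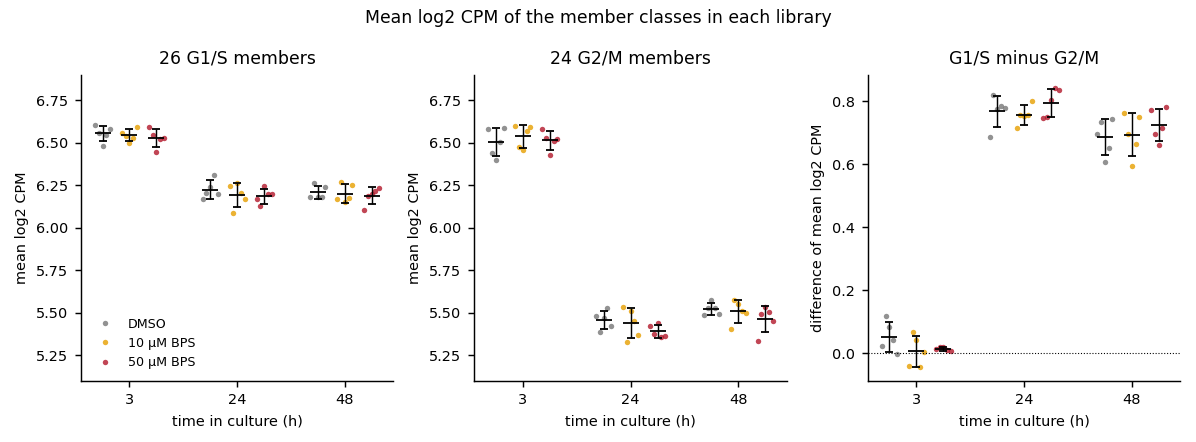
Mean log2 CPM of the 26 G1/S members (left), of the 24 G2/M members (middle) and their difference (right) in each of the 45 libraries, by time in culture (h) and dose. Black marks are means with SD over 5 libraries. The doses lie together at each time, and the difference is lower at 3 h than later, when it is between 0.60 and 0.84. Gene lengths enter the difference, so only its change is read.

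Further genes of the same processes, taken from lists outside the 50, moved alike. These lists were chosen with earlier results of these data known, and they share the libraries of the members. They are given as a description. Of 46 other DNA replication genes, 41 fell and none rose at 24 h against 3 h in DMSO, beside 20.1% of all genes lower. Their median log2 fold change was -0.55. Among them were Timeless and Chaf1a, of fork protection and chromatin assembly, each at -0.80 (SE 0.054 and 0.055), and the DNA ligase Lig1 at -0.69 (SE 0.051). Of 49 other mitosis genes all 49 fell, with a median of -1.05, led by the microtubule depolymerase Kif2c at -1.47 ± 0.065 and Aspm of the spindle pole at -1.37 ± 0.068.

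The inhibitors of cyclin-dependent kinases went both ways. Of 6 tested at 24 h against 3 h, 2 rose and 1 fell, beside 20.0% of all genes higher and 20.1% lower. At such shares 6 genes are too few to be read as a group. Cdkn1a, which encodes the stress and p53 target p21, had 108.5, 114.4, 94.4, 102.8 and 105.6 CPM at 24 h, against 59.6, 57.3, 70.2, 60.6 and 63.0 CPM at 3 h. The times did not overlap, with a log2 fold change of 0.74 ± 0.063 (adjusted p = 6.01e-09). Cdkn1c, an inhibitor of differentiating cells and the one with the most reads, had 1346, 1259, 1162, 1200 and 1286 CPM at 24 h, against 871.8, 837.7, 967.6, 985.5 and 849.0 CPM at 3 h. It rose by 0.45 ± 0.058 (adjusted p = 1.98e-06), with no overlap. Cdkn2d, of the family that acts on Cdk4 and Cdk6, fell by 0.46 (SE 0.112, adjusted p = 0.00269).

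Of 14 retinoblastoma family genes and DREAM partners, 7 fell and 1 rose, beside 20.1% of all genes lower and 20.0% higher. Rbl1, the pocket protein that is itself an E2F target, fell by 0.64 (SE 0.087, adjusted p = 5.13e-06), and Rbbp4 and the E2F partner Tfdp2 fell by 0.25 and 0.29. Rb1, the retinoblastoma gene, named because it alone rose, had a log2 fold change of 0.24 ± 0.083 (adjusted p = 0.0262).

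Markers of other cell types moved over the same interval, and their part in the fall of the members was not tested. Of all genes tested, 20.0% were higher and 20.1% lower. Of 10 chondrocyte markers 9 rose, with a summed level of 10090 to 10830 CPM in DMSO at 24 h, against 4182 to 4642 CPM at 3 h. Most of this sum was Col2a1, at a mean of 6358 CPM at 24 h and 2577 CPM at 3 h. Likewise, Hbb-y and Hba-a1 made up most of the erythroid sum given below. All 8 skeletal muscle markers rose (2085 to 3194 CPM, against 1084 to 1249 CPM), as did 4 of 4 osteoblast markers tested, all 4 hypertrophic chondrocyte markers tested and 6 of 7 macrophage markers (111.5 to 155.3 CPM, against 52.7 to 60.8 CPM). Of 7 erythroid markers 6 fell (1052 to 1943 CPM, against 2064 to 2398 CPM), as did 6 of 6 endothelial markers (178.5 to 215.7 CPM, against 299.6 to 320.7 CPM) and 6 of 10 limb mesenchyme markers (1735 to 1962 CPM, against 2059 to 2260 CPM). Epidermal markers went both ways, with 2 of 6 higher and 2 lower, and 3 of 4 Schwann cell and glial markers tested fell. No marker of these lists had a mean of 0 in DMSO at 3 or 24 h, but Mmp13 of hypertrophic cartilage was at 0.467 CPM at 24 h and 0.167 CPM at 3 h (0 in at least 1 library), and the osteoblast marker Bglap was at 0.181 and 0.366 CPM.

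Between 24 and 48 h fewer members changed, and the 3 D-type cyclins were among the 6 called. In DMSO limbs 2 members rose and 4 fell at 48 h against 24 h, beside 16.0% of all 16694 genes called (9.44% higher and 6.55% lower). This comparison shares the 24 h libraries with the one before. Ccnd2 had 410.3, 501.5, 546.0, 471.3 and 515.1 CPM at 48 h, against 613.3, 652.1, 711.0, 706.9 and 664.2 CPM at 24 h. The times did not overlap, and Ccnd2 fell by 0.46 on the log2 scale (SE 0.078, adjusted p = 0.000662). Ccnd1 had 144.4, 148.9, 181.2, 163.3 and 171.4 CPM at 48 h, against the 24 h values given above, and fell by 0.33 (SE 0.073, adjusted p = 0.00495), its highest library at 48 h just under the lowest at 24 h. These 2 calls held in each of 16 alternative settings.

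The other 4 calls were weaker. Ccnd3 rose further, by 0.22 ± 0.0685 (adjusted p = 0.0347, called in 10 of 16 settings), to 385.3, 356.2, 332.4, 368.4 and 318.0 CPM at 48 h, with 1 library just inside the range of 24 h. Birc5 rose by 0.23 ± 0.074 (adjusted p = 0.0424, called in 7 of 16 settings), Mcm2 fell by 0.21 (SE 0.058, adjusted p = 0.0171, 13 of 16) and Cdc25a fell by 0.19 (SE 0.059, adjusted p = 0.0417, 8 of 16). The count of 6 called was 3 without DMSO 24 h replicate 2 or replicate 5, 2 without DMSO 24 h replicate 3 or DMSO 48 h replicate 4, and 10 in a fit of all 45 libraries. Of the 8 genes followed in every comparison, Ccnd1 apart, Ccne1, Mcm5, Pcna, Mki67, Top2a, Ccnb1 and Cdk1 had log2 fold changes between -0.15 (Mcm5) and 0.18 (Cdk1) and none was called. The class medians were 0.01 for G1/S and 0.05 for G2/M.

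Cdkn1a rose again, to 223.9, 251.2, 188.8, 238.5 and 220.0 CPM at 48 h in DMSO, all above the 24 h libraries, with a log2 fold change of 1.09 ± 0.077 (adjusted p = 2.58e-07). Cdkn2c rose by 0.62 ± 0.116 (adjusted p = 0.00144), and Cdkn1c had 0.03 ± 0.091 (adjusted p = 0.879). Of the other mitosis genes 5 of 49 rose and none fell, beside 9.44% of all genes higher and 6.55% lower. The rises are thus near the share of all genes. They were led by Gtse1 at 0.84 ± 0.103, Ckap2 at 0.48 ± 0.092 and Spc25 at 0.35 ± 0.083 (adjusted p = 3.76e-05, 0.00192 and 0.00770). Of the other DNA replication genes 1 of 46 fell, Gins1, by 0.31 (SE 0.094, adjusted p = 0.0367). Chondrocyte, muscle, osteoblast and macrophage markers also rose over this interval (7 of 10, 5 of 8, 3 of 4 and 7 of 7 tested), with 1 chondrocyte marker lower, and limb mesenchyme (8 of 10), erythroid (5 of 6) and endothelial markers (1 of 6) fell. Their part in these changes was not tested.

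Across the whole interval, at 48 h against 3 h in DMSO, 43 members fell and 2 rose, beside 49.3% of all 16850 genes (24.5% higher and 24.8% lower). The median log2 fold change was -0.48 for the G1/S members and -1.06 for the G2/M members, all 24 of which were lower. The largest falls were of Cdc25c (-1.39), Aurka (-1.29), Ccnb1 (-1.25), Cenpe (-1.24), Cenpa and Cenpf (each -1.23), Kif11 (-1.21) and Bub1b (-1.20). Ccnd3 rose by 0.77 ± 0.067 (adjusted p = 6.63e-08), and Ccne1 by 0.23 ± 0.078 (adjusted p = 0.0215), a call lost without DMSO 3 h replicate 2 (adjusted p = 0.0575). Ccnd2 and Mcm5 fell by 0.58 and 0.84, Pcna by 0.41, Cdk1 by 0.55, Mki67 by 0.95 and Top2a by 0.99, whereas Ccnd1 had -0.08 ± 0.0705 (adjusted p = 0.367). Cdkn1a rose by 1.84 ± 0.080 (adjusted p = 2.59e-11) and Cdkn1c by 0.49 ± 0.092 (adjusted p = 0.000281). In the authors' deposited tables of the DMSO time course, 46, 6 and 46 members passed 0.05 at 24 h against 3 h, 48 h against 24 h and 48 h against 3 h, of which 46, 6 and 45 were called in the same direction by edgeR.

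The same time course was read in the BPS limbs, from libraries that share no control with the DMSO series. At 24 h against 3 h, 43 members fell and 4 rose with 50 µM BPS (43.4% of all genes called, 21.1% higher and 22.3% lower), and 43 fell and 4 rose with 10 µM BPS (42.9% of all genes called, 21.4% higher and 21.5% lower). In both doses the risers were Ccnd1, Ccnd3, Ccne1 and Cdk6, and all 24 G2/M members fell. The median was -0.48 for G1/S and -1.21 for G2/M members with 50 µM, and -0.43 for G1/S and -1.19 for G2/M members with 10 µM. Ccne1 rose by 0.25 ± 0.067 with 50 µM and by 0.24 ± 0.073 with 10 µM (adjusted p = 0.00483 and 0.0118), and although it was not called in DMSO, the difference between its 50 µM effect at 24 h and at 3 h, 0.13 ± 0.101, was not called either (adjusted p = 0.821). Cdk6 rose by 0.47 ± 0.0755 with 50 µM and by 0.32 ± 0.091 with 10 µM.

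At 48 h against 24 h, 4 members rose and 6 fell with 50 µM BPS, beside 28.5% of all genes called (14.5% higher and 13.9% lower). With 10 µM, 3 rose and 4 fell, beside 24.1% (13.5% higher and 10.6% lower). With neither dose were members called more often than all genes. Ccnd3 rose by 0.33 with 50 µM and by 0.24 with 10 µM, Ccnd2 fell by 0.33 and 0.31, Ccnd1 fell by 0.26 and 0.18, and Cdk4 fell by 0.16 in each. E2f1 rose by 0.30 ± 0.078 with 50 µM (adjusted p = 0.00529) and by 0.21 ± 0.074 with 10 µM (adjusted p = 0.0442, called in 9 of 16 settings). Mcm2 fell by 0.19 in each. Mcm4 and Mcm7 fell and Cdk1 and Cdc25b rose with 50 µM, and Rrm2 rose with 10 µM, each by 0.17 to 0.23 in absolute log2 fold change. With 10 µM the 3 D-type cyclins were called in all 16 settings, but Cdk4 in 8, Mcm2 in 13 and Rrm2 in 12. With 50 µM, 9 of the 10 calls held in all 16 settings, and that of Mcm7 in 14. The count of 7 with 10 µM was 4 without 10 µM 48 h replicate 2.

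**Figure D4:**
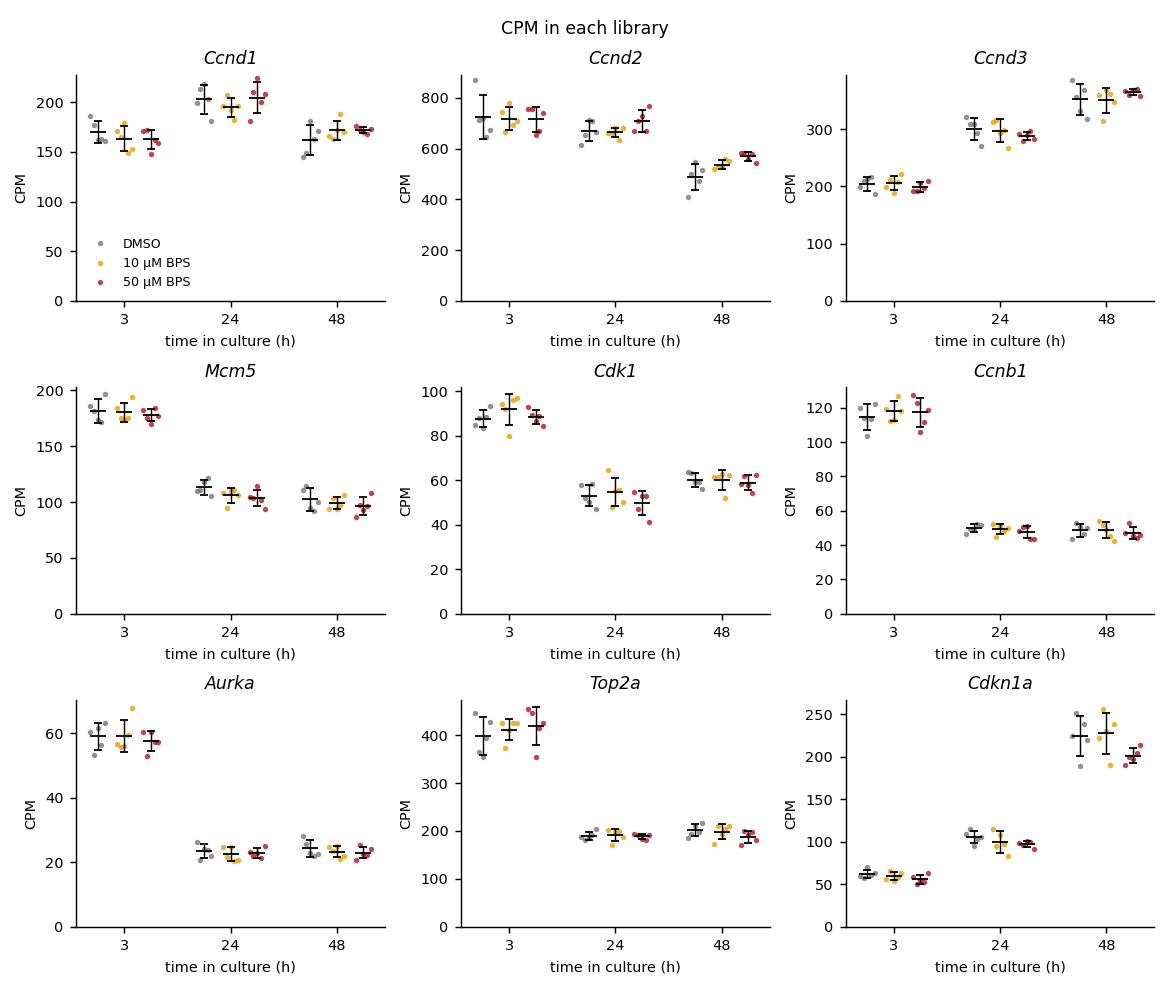
CPM of 8 members and of the inhibitor Cdkn1a in each of the 45 libraries, by time in culture (h) and dose, on linear axes that start at 0. Black marks are means with SD over 5 libraries. Ccnd3 and Cdkn1a are higher at 24 and 48 h than at 3 h, Mcm5, Cdk1, Ccnb1, Aurka and Top2a are lower, and the doses lie together at each time.

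The question the doses address is whether BPS changed these genes in the growing limb. None of the 50 members was called at 50 µM against DMSO at 3 h, 24 h or 48 h, beside 0.0538%, 0.375% and 1.00% of all genes tested at those times. None was called at 10 µM against DMSO, beside 0% of all genes at each time, or at 50 µM against 10 µM, beside 0%, 0% and 0.921% of all genes at the 3 times. By DESeq2 and by limma-voom the counts of members were also 0 in each of these 9 comparisons, and 0 members passed 0.05 in the authors' deposited tables of either dose against DMSO. At an unadjusted p below 0.05, 3, 1 and 7 members passed at 50 µM against DMSO at 3, 24 and 48 h, beside 7.98%, 12.4% and 12.9% of all genes. None passed at 10 µM against DMSO, beside 1.98%, 2.99% and 2.62% of all genes, and 1, 0 and 2 passed at 50 µM against 10 µM, beside 4.41%, 5.58% and 11.3%. The 7 of 50 members at 48 h are near the share of all genes. The comparisons with DMSO share the DMSO libraries.

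The intervals show how large a dose effect these libraries leave room for, each gene and comparison taken singly. They rest on the spread between single libraries, which could be technical, and would then be too narrow. For all 50 members the 95% interval of the log2 fold change lay within 1.5-fold in either direction in each of the 9 dose comparisons. The bounds nearest to that limit at 50 µM against DMSO were -0.39 (Bub1) and 0.27 (Kif11) at 3 h, -0.39 (Cdc20) and 0.26 (Ccne2) at 24 h, and -0.42 (E2f7) and 0.36 (Ccnd2) at 48 h. At 10 µM against DMSO the outermost bounds over the 3 times were -0.34 (Mybl2, 24 h) and 0.34 (Ccne2, 24 h).

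**Figure D5:**
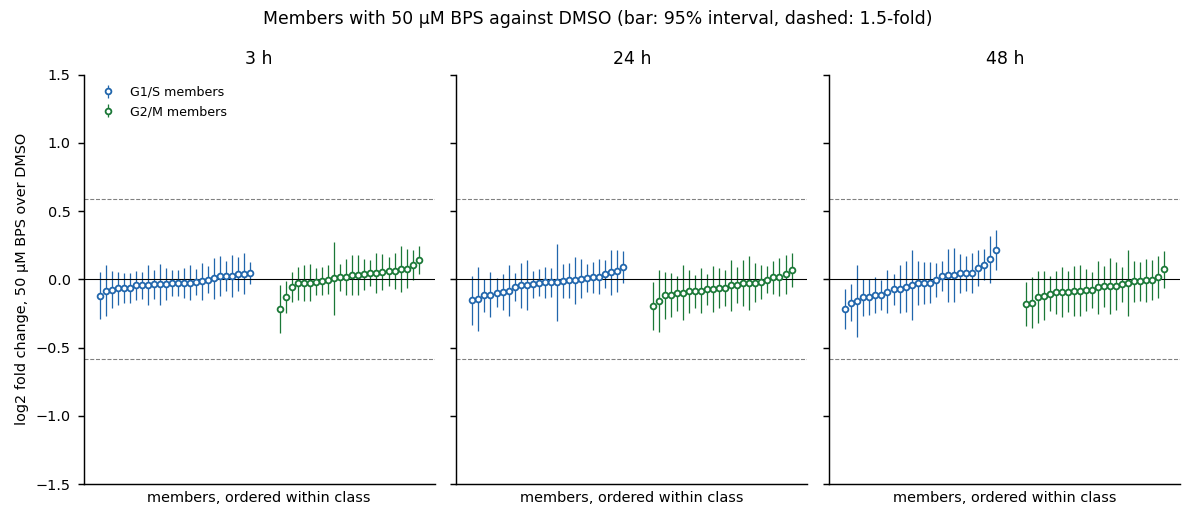
Log2 fold change with 95% interval of the 50 members at 50 µM BPS over DMSO, at 3, 24 and 48 h, ordered by value within the G1/S and G2/M classes. Dashed lines mark 1.5-fold, and every interval lies between them. No member was called.

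The members with the smallest p at 48 h were the thymidylate synthase gene, a D-type cyclin and a reductase subunit. Tyms had 40.8, 45.5, 43.7, 47.3 and 50.5 CPM at 50 µM, against 55.6, 55.1, 48.7, 51.7 and 53.3 CPM in DMSO. The groups overlapped in the highest 50 µM library, and the log2 fold change of -0.22 ± 0.069 missed the threshold (adjusted p = 0.164). Ccnd2 had 410.3, 501.5, 546.0, 471.3 and 515.1 CPM in DMSO, 517.4, 526.4, 530.1, 557.4 and 552.2 CPM at 10 µM, and 581.7, 583.8, 558.6, 578.2 and 544.3 CPM at 50 µM. Only the lowest 50 µM library lay inside the DMSO range, at its upper end, and the log2 fold change of 0.22 ± 0.069 was not called (adjusted p = 0.172; 0.0434 in a fit of all 45 libraries, the single setting of 16 that called it). Rrm2 had -0.17 ± 0.064 (adjusted p = 0.266).

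At 3 h the smallest p were those of Cdc25b, Bub1 and Kif23. Cdc25b had 70.0, 67.9, 69.2, 73.1 and 69.8 CPM at 50 µM, against 67.6, 61.6, 61.9, 63.0 and 63.8 CPM in DMSO. The groups did not overlap, as for 1.69% of all genes tested in this comparison, where 0.0538% were called, and the log2 fold change of 0.14 ± 0.049 was not called (adjusted p = 0.449). The other members overlapped here, and all 50 did in the other 5 comparisons of a dose with DMSO. Bub1, a kinase of the spindle checkpoint, had 56.0, 53.1, 43.8, 47.3 and 48.0 CPM at 50 µM, against 68.3, 51.5, 48.8, 58.2 and 62.5 CPM in DMSO. The groups overlapped, at -0.22 ± 0.083 (adjusted p = 0.517). A replicate block, the single setting of 16 that called Bub1, gave an adjusted p of 0.0351 in edgeR, though the labels do not pair the numbers. Bub1 also had the smallest p at 24 h, at -0.19 ± 0.084 (adjusted p = 0.354), and had -0.18 ± 0.076 at 48 h (adjusted p = 0.330). Kif23 had -0.13 ± 0.056 at 3 h (adjusted p = 0.580). Next to Bub1 at 24 h came the helicase subunits Mcm5 (-0.12, adjusted p = 0.410) and Mcm7 (-0.10, adjusted p = 0.446).

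At 10 µM against DMSO the members with the smallest p were Cdt1 (-0.11), Kif23 (-0.08) and Ube2c (0.08) at 3 h, Mcm7 (-0.09), Mcm5 (-0.09) and Rrm2 (-0.11) at 24 h, and Bub1 (-0.14), Ccnd2 (0.14) and E2f2 (-0.14) at 48 h, with adjusted p of 0.999 to 1.000. At 50 µM against 10 µM at 48 h they were E2f7 (-0.24, adjusted p = 0.323), Cdc20 (-0.16, adjusted p = 0.437) and Ccnd2 (0.08, adjusted p = 0.467).

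The members followed by rule in every comparison stayed close to their controls. At 50 µM against DMSO at 48 h, Ccnd1, Ccne1, Mcm5, Pcna, Mki67, Top2a, Ccnb1 and Cdk1 had log2 fold changes between -0.11 (Top2a) and 0.08 (Ccnd1), with SEs of 0.053 to 0.076 and adjusted p of 0.487 to 0.916. Their range was -0.07 (Ccne1) to 0.08 (Top2a) at 3 h and -0.12 (Mcm5) to 0.06 (Ccne1) at 24 h. The inhibitor Cdkn1a at 48 h had -0.17 ± 0.071 (adjusted p = 0.327) and Cdkn1c had 0.03 ± 0.086 (adjusted p = 0.931). Signs were uneven at this time: 16 of 26 G1/S and 22 of 24 G2/M members had values below 0, with medians of -0.03 and -0.07, beside -0.004 for all genes tested. The 49 other mitosis genes had a median of -0.08 and the 46 other DNA replication genes -0.04, and none of either list was called. Members share libraries and are not replicates, so the signs are given as a description. At this dose and time 4 of 7 macrophage markers and 1 of 6 endothelial markers were lower and 1 of 5 hypertrophic chondrocyte markers was higher, with summed levels of 125.5 to 197.4 CPM at 50 µM against 188.7 to 264.9 CPM in DMSO for macrophages, and 157.4 to 197.7 CPM against 178.4 to 249.4 CPM for endothelium. Of all genes tested, 1.00% were called at this dose and time. The part of these markers in the signs of the members was not tested.

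Whether the 50 µM effect changed with time was tested as an interaction over all 45 libraries. No member was called for 24 h minus 3 h, 48 h minus 24 h or 48 h minus 3 h by edgeR, beside 0%, 0% and 0.0922% of all 18432 genes, and none was called by limma-voom. At an unadjusted p below 0.05 there were 0, 0 and 5 members, beside 6.56%, 3.47% and 8.34% of all genes, so the 5 of 50 are near the share of all genes. The smallest p, for 48 h minus 3 h, were those of Ccnb2 (-0.27 ± 0.099, adjusted p = 0.370), Ccnd2 (0.23 ± 0.087, adjusted p = 0.405) and Cdk6 (0.27 ± 0.122, adjusted p = 0.553). All 50 intervals of each interaction lay within 1.5-fold, out to -0.47 (Ccnb2) and 0.51 (Cdk6).

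Within groups, pairs of members varied together weakly. Over the deviations of the 45 libraries from their group means, the median Pearson r was 0.27 for the 276 pairs of G2/M members, 0.19 for the 325 pairs of G1/S members and 0.18 for the 624 pairs of one of each. These correlations are a description: the points share libraries, scaling and depth.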

How the data were processed

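RNA of cultured forelimb buds was sequenced in 45 libraries, 5 for each of 3 doses and 3 times. Per the file headers, the authors deposited raw read counts per gene in tables of 1 comparison each, with normalised values (not used here), log2 fold changes and p-values. Per the submitters' processing notes, CASAVA 1.8, STAR 2.5, HTSeq 0.6.1 and DESeq2 were used on build mm10; the sources used here do not give the annotation release or the strand setting. Other columns deposited by the authors give gene position, length and description.

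The deposited counts of 9 tables were joined by gene identifier, and no control count differed between tables. Comparisons were fitted in edgeR 4.0.16 (R 4.3.3), with its default filter on low counts, TMM scaling, robust quasi-likelihood and Benjamini-Hochberg adjustment over all genes tested. Each fit used the libraries of its own comparison; interactions used all 45. An SE is the absolute log2 fold change over the square root of F. DESeq2 1.42.0, limma-voom (limma 3.58.1), no filter, a fit of 45 libraries, a replicate block and leaving out each library were alternatives. The fits were tested on simulated data with 200 changed genes. Figures used Python 3.11.15, pandas 2.3.3 and matplotlib 3.10.9.

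Depth limits the precision of low genes; libraries held 15.2 M to 23.1 M reads. The least different pair among 90 replicate pairs had a chi-square of 4.58 per degree of freedom, over genes with at least 30 reads, so no library was counted as a repeat. The largest values were 38.2 and 37.1, for DMSO 48 h replicate 1 against replicates 3 and 5. That library was kept, and it is in every comparison with DMSO at 48 h. The members and lists were chosen with earlier results of these data known. Genes named in each comparison were Ccnd1, Ccne1, Mcm5, Pcna, Mki67, Top2a, Ccnb1, Cdk1, Cdkn1a and Cdkn1c, with the 8 largest called changes in each direction or, with none called, the 3 smallest p; others were chosen after their values were seen.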

Additional observations from a re-analysis of the deposited data

Results flagged for a closer look

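In 180 sets of 5 libraries (17 genes and 3 class means in 9 groups), 9 held a library far from the other 4, where chance alone gives about 1 in 20, or 9.0. With 50 µM BPS, Ccne1 was 34.1 CPM in replicate 1 at 3 h, the highest (others 28.9 to 30.2), and Tyms was 37.4 CPM in replicate 2 at 24 h, the lowest (others 46.5 to 48.6). With 10 µM BPS at 3 h, replicate 2 was lowest for Mki67, at 288.6 CPM (others 347.4 to 361.0), and for Top2a, at 373.3 CPM (others 410.9 to 425.8), and replicate 3 was lowest for Cdkn1c, at 819.5 CPM (others 917.5 to 951.4). With 10 µM BPS later, Mcm5 was lowest in replicate 2 at 24 h, at 94.7 CPM (others 106.7 to 110.8), and Cdk1 in replicate 4 at 48 h, at 52.2 CPM (others 61.4 to 62.8). In DMSO, Cdk2 was lowest in replicate 3 at 3 h, at 110.5 CPM (others 117.7 to 119.7), and Cdkn1c was highest in replicate 1 at 48 h, at 1625 CPM (others 1116 to 1240).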

How the results depend on the processing

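Over 76 counts and class medians, 511 of 522 alternatives and 689 of 700 that left out a library stayed near the reported value. Near means a count within 1.5 times of the reported one or a median within 1 SD of the class mean between libraries. The cause of the others was not tested. Some class medians and differences near 0 changed sign when a library was left out, as ranges below show. With a replicate block 1 member was called at 50 µM against DMSO at 3 h (Bub1, -0.21, adjusted p = 0.0351) and 3 at 48 h against 24 h with 10 µM. The labels do not say that numbers pair libraries, and in no comparison did every same-numbered pair correlate over 0.1. For 50 µM against DMSO at 3 h, r was 0.09 to 0.18, and 4 of 5 libraries matched their own number best. Across the comparisons of doses 2 to 5 of 5 did so, and across the comparisons of times 0 to 3 of 5. Whether same-numbered libraries of a time share a source was not tested. A fit of 45 libraries called 1 member at 50 µM against DMSO at 48 h (Ccnd2) and 10 at 48 h against 24 h in DMSO. Without the D cyclins, Cdk4 and Cdk6, the G1/S median and the class difference at 24 h against 3 h were -0.522 and 0.603 in DMSO, and -0.548 and 0.638 with 10 µM. Without members of least clear class the difference was 0.641 in DMSO at 48 h against 3 h, and 0.823 with 10 µM and 0.779 with 50 µM at 24 h against 3 h. Leaving out 1 library gave 2 to 7 members called at 48 h against 24 h in DMSO and 4 to 10 with 10 µM, and class differences of 0.679 to 0.753 in DMSO at 24 h against 3 h, 0.52 to 0.611 at 48 h against 3 h and -0.017 to 0.062 for 50 µM against DMSO at 48 h. Leaving out 1 replicate number gave interaction differences of -0.032 to 0.039 (48 h minus 24 h) and 0.029 to 0.111 (48 h minus 3 h, with a G1/S median of -0.048 to 0.034). Counts do not separate cell number from RNA per cell, and overlapping genes limit 11 members.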
